A study of Mus musculus with 16 samples.

Results

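Six3, Otx1, Otx2, Emx2, Lhx2, Hesx1, Rax, Fezf1 and Fezf2 encode transcription factors that act in the forming forebrain, and their RNA levels were followed through tissues of the early mouse head and face. The 9 genes were chosen by symbol, each stood on 1 row, and they are 9 of the 15876 genes in the values. The RNA came from micro-regions of CD1 mouse embryos (CD1 is an outbred strain), no treatment or mutation is given in the labels, and the regions were sequenced as 50-base single-end reads in 16 libraries. Embryonic day 8.5 (E8.5) gave 4 libraries, of mesoderm, caudal brain neural epithelium, non-floor plate neural epithelium and floor plate. Those of E9.5 came from epidermal ectoderm, cranial mesenchyme, maxillary arch and mandibular arch. The 8 E10.5 libraries came from neural epithelium (labelled dorsal control, central or lateral prominence), olfactory pit, medial and lateral nasal prominence, and maxillary and mandibular arch. Each region had 1 library, and the labels do not say how many embryos entered it, so a difference between single libraries has no replicate check. A level here is the ratio of a gene's value to that gene's own minimum over the 16 libraries. For each of the 9 genes at least 2 libraries shared that lowest value, a floor to which low values had been raised, so a level of 1 means at the floor and not absence of RNA. Levels compare libraries for 1 gene and do not compare genes with each other. The floor plate and non-floor plate libraries are together called E8.5 anterior neural; the labels do not give their place along the body axis.

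The forebrain arises from the front of the neural plate, where a set of homeodomain and zinc finger factors is switched on before the brain vesicles form. Six3, Hesx1 and Rax mark the most anterior neural plate and the eye field, and Otx1 and Otx2 cover the forebrain and midbrain up to the boundary with the hindbrain. Lhx2, Emx2, Fezf1 and Fezf2 then help to divide the forebrain into cortex, eye, thalamic and hypothalamic territories. Several of these genes are also active in the olfactory placode, the thickened head ectoderm that sinks in to form the olfactory pit.

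RefSeq promoter windows of 300 bases (250 before to 50 after the gene's start, build GRCm38.p6) were used for 7 of the 9 genes, and no window was used for Otx1 or Rax. Windows on a single chromosome were left out before the members' windows were picked. Those of Six3, Otx2, Emx2 and Fezf2 are shown because these genes differ in opposite directions between a pair of E10.5 neural libraries described below: Six3 and Otx2 were higher in the library labelled dorsal control, and Emx2 and Fezf2 in that labelled central. They are Six3 at chr17:85620584-85620883 on the plus strand, Otx2 at chr14:48667595-48667894 on the minus strand, Emx2 at chr19:59458440-59458739 on the plus strand and Fezf2 at chr14:12345816-12346115 on the minus strand, each written 5′ to 3′ on the gene's strand. For Otx2 the table lists 4 starts, and the most upstream was used. Capitals mark TAATTA, a core that many homeodomain proteins bind.
Six3: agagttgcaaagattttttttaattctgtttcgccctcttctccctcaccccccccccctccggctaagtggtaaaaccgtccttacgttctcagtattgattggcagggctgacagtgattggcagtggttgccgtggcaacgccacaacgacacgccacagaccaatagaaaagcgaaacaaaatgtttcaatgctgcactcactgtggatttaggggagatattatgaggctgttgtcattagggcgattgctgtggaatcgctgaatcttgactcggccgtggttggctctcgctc
Otx2: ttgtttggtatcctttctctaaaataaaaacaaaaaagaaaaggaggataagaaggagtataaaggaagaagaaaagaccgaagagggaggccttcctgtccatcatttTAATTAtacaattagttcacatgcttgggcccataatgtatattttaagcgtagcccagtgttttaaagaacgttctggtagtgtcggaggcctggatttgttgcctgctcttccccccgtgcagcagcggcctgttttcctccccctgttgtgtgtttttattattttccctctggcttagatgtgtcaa
Emx2: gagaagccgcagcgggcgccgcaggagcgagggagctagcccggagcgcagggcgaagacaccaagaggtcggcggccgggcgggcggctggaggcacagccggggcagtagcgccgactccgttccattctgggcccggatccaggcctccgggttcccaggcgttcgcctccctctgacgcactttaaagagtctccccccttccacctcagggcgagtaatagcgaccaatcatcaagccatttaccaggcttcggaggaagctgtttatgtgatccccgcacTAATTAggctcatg
Fezf2: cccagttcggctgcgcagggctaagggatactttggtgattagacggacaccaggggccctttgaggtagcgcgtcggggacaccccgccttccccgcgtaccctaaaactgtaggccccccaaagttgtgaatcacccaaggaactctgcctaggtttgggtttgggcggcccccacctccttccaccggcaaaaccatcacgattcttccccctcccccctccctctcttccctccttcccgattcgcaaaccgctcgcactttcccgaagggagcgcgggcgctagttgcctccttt
TAATTA, which reads the same on both strands, was present in 2 of the 7 windows and begins at position -141 in Otx2 and at position 37 in Emx2, counted from the gene's start. Of 32851 promoter windows in the table, 5.29% hold it. TAATCC, the core known for Otx proteins, was searched as TAATCC and GGATTA and was in 0 of the 7 windows, against 7.06% of all windows. These matches describe letters in these windows and nothing about binding in these embryos.

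Some libraries go against their labels. The sample titled central has a value column whose header carries the abbreviation of dorsal control, and the reverse holds for the sample titled dorsal control, so title and header disagree for both. The library labelled dorsal control had high levels of the ventral forebrain genes Nkx2-1 (101), Vax1 (12.4) and Shh (12.4), with the cortical regulator Pax6 at the floor. The library labelled central had Pax6 at 66.6 and Wnt8b, a signal of the cortical hem, at 11.1. Of the ventral genes, Shh was also above level 5 there (7.04), Nkx2-1 was at 3.91 and Vax1 was at the floor. Samples stay here in the groups their titles give, and comparisons of the 3 E10.5 neural libraries as a class do not depend on which is which. The library labelled medial nasal prominence had 12 of 12 face mesenchyme markers under level 5 (mean log2 level 0.00) and 6 of 8 neural progenitor markers at 5 or more, with Nes at 43.2, Fabp7 at 56.4 and Nkx2-1 at 49.9. Results that include it are given with and without it. In the E8.5 floor plate library 4 of 7 measured floor plate genes were at 5 or more (Nkx2-9 108, Spon1 25.1, Foxa2 9.18 and Shh 6.36), and Shh and Foxa2 were at the floor in the other E8.5 libraries. Nkx2-9 and Spon1 were also at 11.8 and 11.5 in caudal brain, and the floor plate gene Ntn1 was lowest in the floor plate library, at 1.85 against 2.71 to 3.59 in the other 3. That library also had Krt8, Krt18 and Krt19 of the surface epithelium and Col1a1, Col1a2 and Postn of the mesenchyme at 5 or more. All 3 E10.5 neural libraries had 0 of 12 surface epithelium and 0 of 12 face mesenchyme markers at 5 or more.

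More of the 9 genes were at a high level in E8.5 anterior neural tissue than in any other library, and most were at or close to the floor in most of the face. In both E8.5 anterior neural libraries 8 of 9 genes had a level of 5 or more, as did 10.8% of all 15876 genes in floor plate and 10.1% in non-floor plate. Next came the E10.5 olfactory pit and the neural library labelled central with 7 each, lateral prominence neural epithelium with 6, E9.5 epidermal ectoderm with 5 and the neural library labelled dorsal control with 4. The library labelled medial nasal prominence and the E9.5 maxillary arch had 3 each, caudal brain 2 and E8.5 mesoderm 1. The remaining 5 libraries had 0. Of all genes, 3.27% to 6.03% were at 5 or more in the E10.5 neural libraries, 10.97% in the olfactory pit, 11.5% in epidermal ectoderm and 14.03% in mesoderm, so the counts of members stand against different shares. In the E10.5 lateral nasal prominence and mandibular arch all 9 genes were at the floor, where 74.3% and 81.5% of the 8794 genes with a shared floor also were. The share of such genes at the floor was 63.8% to 72.4% in the E10.5 neural libraries and 50.6% in the olfactory pit. In bulk tissue, fewer cells of a type and less RNA per cell cannot be told apart.

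**Figure D1:**
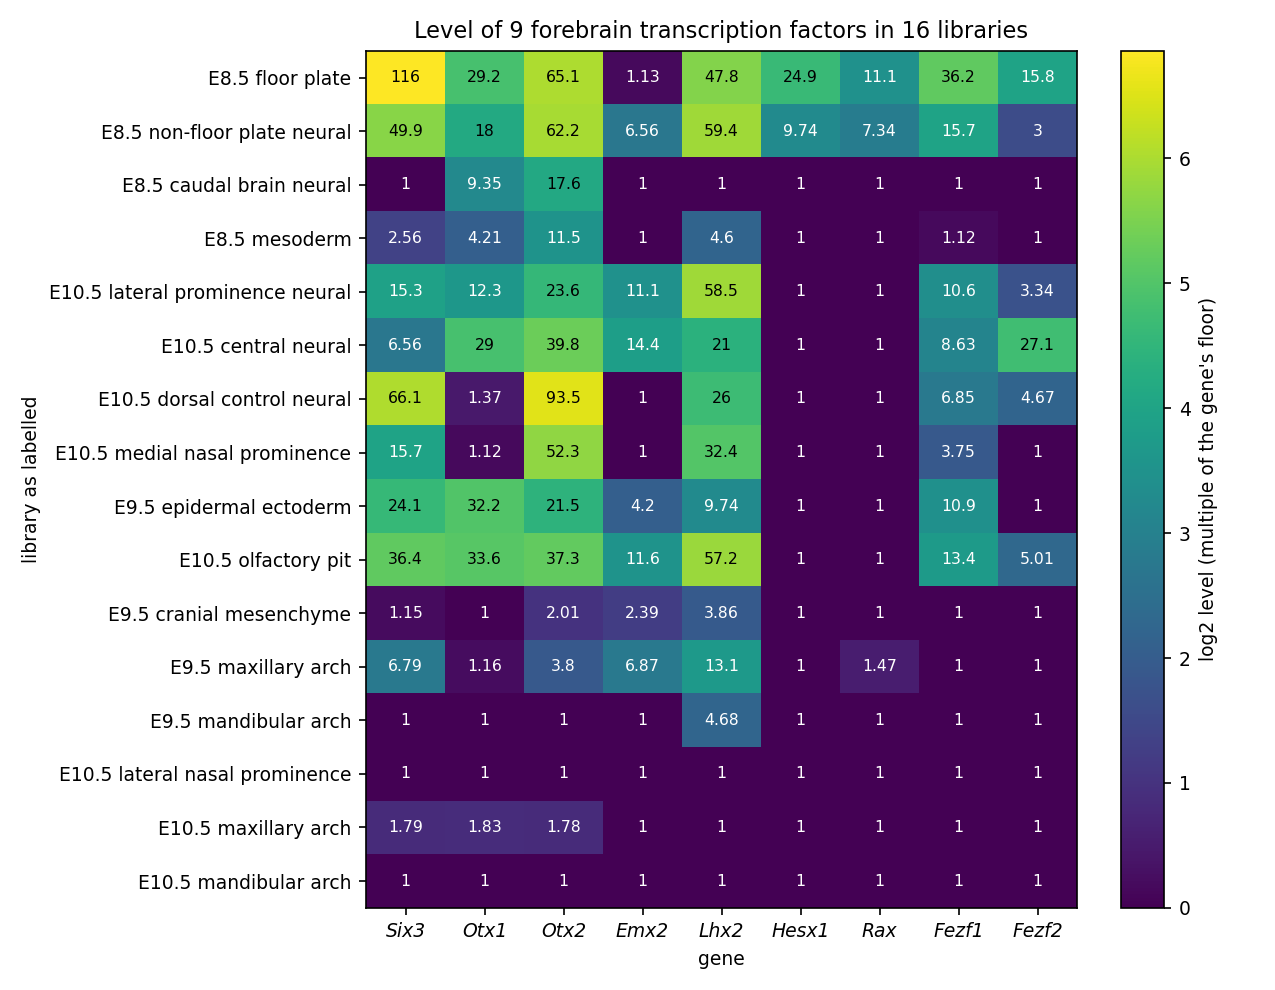
Levels of the 9 genes (columns) in the 16 libraries (rows, as labelled), with the number in each cell giving the level as a multiple of the gene's floor and the colour its log2. The 2 E8.5 anterior neural rows at the top hold values above 1 in every column, and the rows of the E10.5 lateral nasal prominence and mandibular arch at the bottom are at 1 throughout.

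Six3, which represses Wnt signalling in the anterior neural plate and is needed for the forebrain and eye, was above the floor in 12 libraries. It stood at 116 in the E8.5 floor plate library, 49.9 in non-floor plate, 2.56 in mesoderm and 1 in caudal brain. At E10.5 it was 66.1 in the neural library labelled dorsal control, 15.3 in lateral prominence and 6.56 in the library labelled central. It was 24.1 in epidermal ectoderm, 36.4 in the olfactory pit, 15.7 in the library labelled medial nasal prominence and 6.79 in the E9.5 maxillary arch. Six3 was thus high in anterior neural tissue and in both surface epithelia, and the remaining 5 mesenchyme libraries were between 1 and 1.79. Its neighbour Six3os1, a noncoding RNA gene read from the other strand, followed it over the 16 libraries (Pearson r of log2 levels 0.97, n = 16). Six3os1 had levels of 58.3 and 32.6 in the E8.5 anterior neural libraries, floor plate first, and 124 in the library labelled dorsal control. Six3 had its highest level at E8.5 and Six3os1 at E10.5. The reads were not stated to be counted by strand, so reads of the 2 genes cannot be told apart.

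Hesx1, a repressor of the anterior neural plate and pituitary, and Rax, which specifies the eye field, were at 5 or more in the 2 E8.5 anterior neural libraries and in no other library. Hesx1 had a level of 24.9 in floor plate and 9.74 in non-floor plate, and was at the floor in the other 14 libraries. Rax had 11.1 and 7.34, was 1.47 in the E9.5 maxillary arch, and was at the floor in 13 libraries. Both genes kept the same order of the 2 E8.5 anterior libraries. The base here is the 179 genes that have a shared floor and a level of 5 or more in both E8.5 anterior libraries. Of these, 18 (10.1%) were at the floor in all 3 E10.5 neural libraries, and Hesx1 and Rax are 2 of them. Hesx1 was the single gene of the 179 (0.559%) at the floor in all other libraries.

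Otx1 and Otx2, the mouse relatives of the fly head gene orthodenticle, are both genes of the forebrain and midbrain; Otx2 was above the floor in 13 libraries and Otx1 in 12. Otx2 was 65.1 in floor plate, 62.25 in non-floor plate, 17.6 in caudal brain and 11.5 in mesoderm, so it was above the floor in all 4 E8.5 libraries. At E10.5 Otx2 was 93.5 in the neural library labelled dorsal control, 39.8 in that labelled central, 23.6 in lateral prominence and 37.3 in the olfactory pit. The library labelled medial nasal prominence had an Otx2 level of 52.3, between those labelled dorsal control and central. Epidermal ectoderm had 21.5. Over the 6 other mesenchyme libraries Otx2 ranged from 1 to 3.80 with a median of 1.39. Otx1 was 29.2 in floor plate, 18.0 in non-floor plate, 9.35 in caudal brain and 4.21 in mesoderm. Its highest levels were in the olfactory pit (33.6) and epidermal ectoderm (32.2), ahead of the neural library labelled central (29.0) and lateral prominence (12.3). That order depends on the scale. Relative to the median gene of each library, Otx1 was highest in the library labelled central (35.2), with 29.1 in the olfactory pit and 25.6 in epidermal ectoderm. In the libraries labelled dorsal control and medial nasal prominence, where Otx2 was high, Otx1 was at 1.37 and 1.12.

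Emx2, which patterns the cortex, and Lhx2, a LIM homeodomain factor of the eye field, cortex and olfactory neurons, differed in reach. Emx2 was 6.56 in E8.5 non-floor plate and 1.13 in floor plate, and at the floor in caudal brain and mesoderm. At E10.5 it was 14.4 in the library labelled central, 11.1 in lateral prominence, 11.6 in the olfactory pit and at the floor in the library labelled dorsal control. Epidermal ectoderm had 4.20 and the E9.5 maxillary arch 6.87. Emx2 was the 1 member under level 5 in floor plate. Lhx2 was 59.4 in non-floor plate, 47.8 in floor plate, 4.60 in mesoderm and 1 in caudal brain. At E10.5 Lhx2 was 58.5 in lateral prominence, 57.2 in the olfactory pit, 32.4 in the library labelled medial nasal prominence, 26.0 in that labelled dorsal control and 21.0 in that labelled central. At E9.5 it was 13.1 in the maxillary arch, 9.74 in epidermal ectoderm, 4.68 in the mandibular arch and 3.86 in cranial mesenchyme. Lhx2 was above the floor in all 4 E9.5 libraries and in none of the E10.5 arches or the lateral nasal prominence.

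Fezf1 and Fezf2 encode related zinc finger repressors; Fezf1 is known for the olfactory system and Fezf2 for deep-layer cortical neurons. Fezf1 was 36.2 in floor plate and 15.7 in non-floor plate, 10.9 in epidermal ectoderm and 13.4 in the olfactory pit. In the 3 E10.5 neural libraries it was 10.6 in lateral prominence, 8.63 in the library labelled central and 6.85 in that labelled dorsal control, the narrowest range of the members that were above the floor there. It was 3.75 in the library labelled medial nasal prominence and 1.12 in mesoderm. Fezf2 was 27.1 in the neural library labelled central, 15.8 in E8.5 floor plate, 5.01 in the olfactory pit, 4.67 in the library labelled dorsal control, 3.34 in lateral prominence and 3.0 in non-floor plate. It was at the floor in the other 10 libraries. Fezf2 thus stood out in 1 E10.5 neural library, whereas Fezf1 was spread over neural tissue and surface epithelium.

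The first comparison asked how anterior neural tissue differed from caudal brain at E8.5. A gene was counted between 2 single libraries when it differed by 2-fold or more relative to the median gene (with the library's shared shift over genes without a floor removed) and had a level of 5 or more in the higher library. In every such pair, a gene at the floor in 1 library is eligible only through the other, so its direction was fixed in advance. In floor plate against caudal brain 8 of 8 eligible members were higher and 0 lower, and Emx2 was under level 5 in both. Of 2318 eligible genes, 27.4% were counted in either direction and 11.7% as higher. Six3 was at least 114.6-fold higher, Lhx2 at least 47.0-fold, Fezf1 at least 35.6-fold, Hesx1 at least 24.5-fold, Fezf2 at least 15.6-fold and Rax at least 11-fold. These are lower bounds, since caudal brain was at the floor, and for the same reason these members could only be counted as higher. Otx2 (3.63-fold) and Otx1 (3.07-fold), which were above the floor in caudal brain, differed least of the 8. In non-floor plate against caudal brain 8 members were again higher and 0 lower, or 7 higher with values as deposited, where Otx1 fell below 2-fold; 33.0% of 2187 genes were counted in either direction and 24.8% as higher. Here Emx2 was at least 7.94-fold higher in place of Fezf2, which was under level 5 in both. Of the members counted, only Otx1 and Otx2 were above the floor in caudal brain and could have gone either way. The midbrain and hindbrain factors went the other way: 0 higher and 8 lower of 12 measured in floor plate, 0 higher and 7 lower in non-floor plate. Hes3 (34.7), Pax8 (33.0), Pax5 (30.2), En1 (25.8) and Gbx2 (15.8), which act at and behind the midbrain-hindbrain boundary, had these levels in caudal brain; in both anterior libraries Hes3, Pax5, En1 and Gbx2 were at the floor and Pax8 was at 1 and 2.02.

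**Figure D2:**
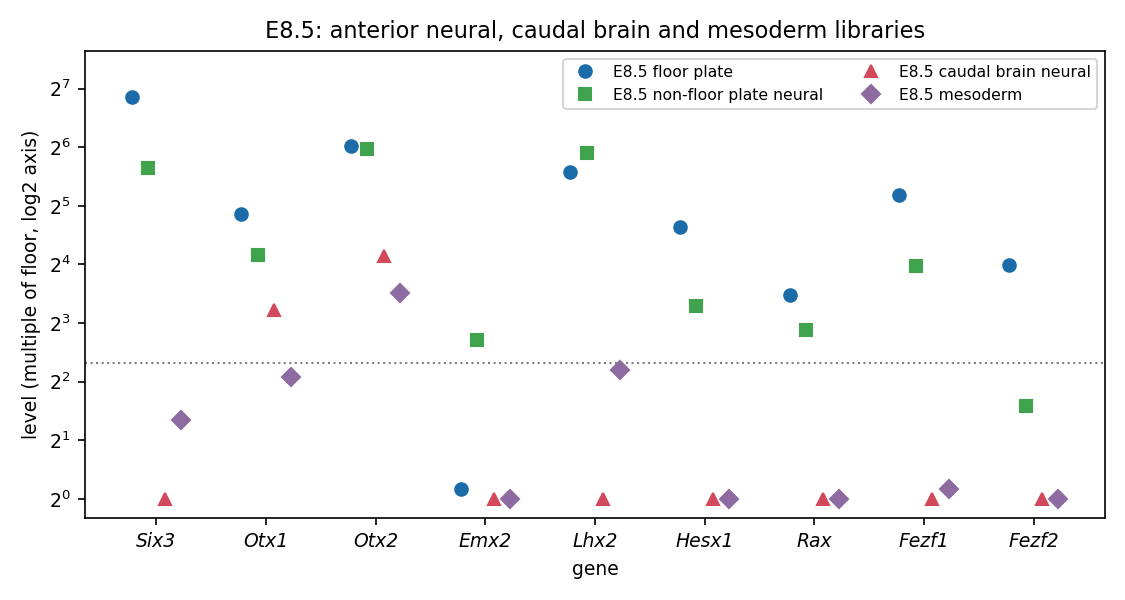
Levels of the 9 genes (x axis) in the 4 E8.5 libraries on a log2 axis, as multiples of each gene's floor; the dotted line is level 5. Floor plate and non-floor plate points lie above caudal brain for 8 genes, and for Emx2 floor plate (1.13) lies just above caudal brain (1).

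Of the 179 genes with a shared floor and a level of 5 or more in both anterior libraries, 13 (7.26%) were at the floor in caudal brain. Among them were 5 of the 7 members that met the base, namely Six3, Lhx2, Hesx1, Rax and Fezf1. Non-floor plate against mesoderm gave 8 members higher and 0 lower, with 35.7% of 2761 genes counted and 21.1% as higher. Emx2, Hesx1 and Rax were at the floor in mesoderm, so they could only be counted as higher. Six3 was 26.0-fold higher than in mesoderm, Fezf1 18.6-fold, Lhx2 17.2-fold, Otx2 7.22-fold and Otx1 5.68-fold.

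Floor plate and non-floor plate differed in 3 members. Hesx1 was 2.08-fold and Fezf2 4.29-fold higher in floor plate, and Emx2 was 7.14-fold lower. That is 2 higher and 1 lower of 9, where 36.9% of 2341 genes were counted. With values as deposited Six3 (2.33-fold) and Fezf1 (2.30-fold) also passed 2-fold, giving 4 higher and 1 lower. Among the other forebrain and eye factors, 3 were higher and 1 lower of 22 measured. Nkx2-1, Foxd1 and Lhx5 had levels of 11.7, 20.0 and 10.2 in floor plate and 1, 4.13 and 3.50 in non-floor plate.

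The next comparison took the 3 E10.5 neural libraries against the 2 E8.5 anterior neural libraries. Each class pools regions that differ, so the test's error comes from spread between regions. limma also draws on the spread of other genes, so an SE is not a gene's own spread alone. By limma with Benjamini-Hochberg adjustment 0 of 7 members tested passed an adjusted p of 0.05 with a 2-fold difference, while 304 genes were higher and 375 lower of 9762 tested (6.96%). Six3 went from levels of 49.9 and 116 to 6.56, 15.3 and 66.1, a log2 difference of -1.70 (SE 1.48, limma adjusted p 0.483). For Fezf1 the E10.5 levels, 6.85 to 10.6, lay under both E8.5 levels, 15.7 and 36.2, with a log2 difference of -1.16 (SE 1.43, limma adjusted p 0.624). It was the 1 of 7 tested members without overlap in values as deposited, where 46.7% of tested genes had none. The SE depended on limma's trend option. Without the trend it was 0.40 for Fezf1 (limma adjusted p 0.118) and 0.86 for Six3 (limma adjusted p 0.245), and neither was called. Otx2 (-0.19, SE 0.68) and Lhx2 (-0.42, SE 0.83) differed least, and Emx2 (1.32) and Fezf2 (0.45) had positive log2 differences. Hesx1 and Rax could not be tested under the filter, since both were at the floor in all 3 E10.5 neural libraries. They were at least 8.05-fold and 6.06-fold lower there than in the lower E8.5 library relative to the median gene. The 679 calls fell to 0 without non-floor plate and to 6 without lateral prominence. Of the other forebrain and eye factors 0 of 12 tested were called, with a median log2 difference of 1.62 beside 0.03 over all tested genes, and of the midbrain and hindbrain factors the 1 tested gene, Pax2, fell 10.1-fold (limma adjusted p 0.0375), from levels of 12.7 and 15.9 to between 1 and 1.41. Pax2 met the filter only through the 2 E8.5 libraries and the library labelled central, so its call follows in part from the filter. Some markers of other cell types moved with this comparison too: Nes of neural progenitors was 19.9-fold (limma adjusted p 0.0174) and Elavl4 of neurons 10.9-fold (limma adjusted p 0.0357) higher at E10.5. The 3 E10.5 libraries alone would have passed both through the filter, so their calls are not separate support. They were 1 of 8 tested progenitor and 1 of 6 tested neuron markers. The tested neuron markers had a median log2 difference of 0.92, but Tubb3 and Ina had lower levels in all 3 E10.5 libraries than in both E8.5 libraries. Neural progenitor markers at 5 or more numbered 5 of 8 in both E8.5 libraries and 6 to 8 of 8 at E10.5, and neuron markers 3 of 8 in both and 2 to 4 of 8. Their part in the members' differences was not tested.

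Several members differed between the 3 E10.5 neural libraries, as did many other genes. In the library labelled central against that labelled dorsal control, Otx1 was 24.1-fold, Emx2 at least 16.4-fold and Fezf2 6.6-fold higher, and Six3 was 8.87-fold and Otx2 2.07-fold lower. That is 3 higher and 2 lower of 7 eligible members, beside 54.4% of 1150 eligible genes counted in either direction. Lhx2 (21.0 and 26.0) and Fezf1 (8.63 and 6.85) were not counted, and Hesx1 and Rax were at the floor in both. The other forebrain and eye factors split likewise, with 5 higher and 5 lower of 22 measured. Pax6 (66.6 and 1) and Nr2e1 (28.5 and 8.02) were higher in the library labelled central. Nkx2-1 (3.91 and 101) and Zic1 (14.3 and 61.3) were higher in that labelled dorsal control. Because the column headers of these 2 libraries carry each other's abbreviation, the direction holds for the titles and would turn with the headers.

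**Figure D3:**
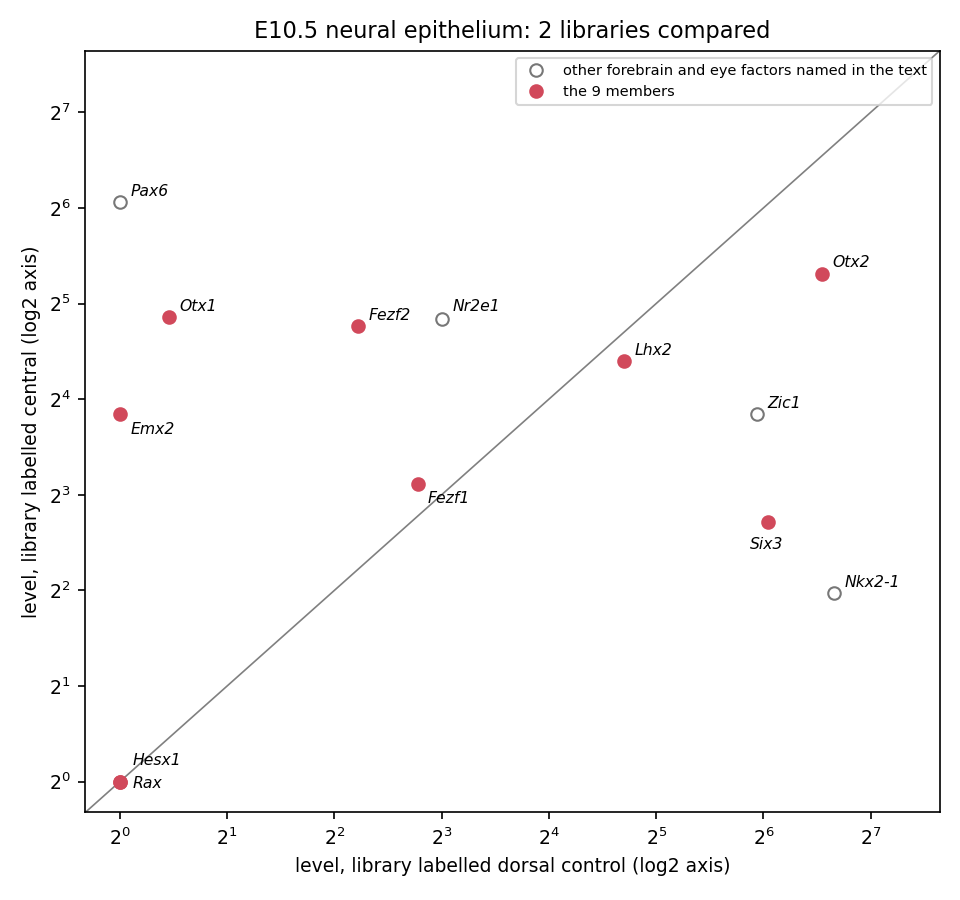
Level in the neural library labelled central (y axis) against that labelled dorsal control (x axis), both at E10.5 and on log2 axes, for the 9 members (filled) and for the 4 other forebrain and eye factors named with this comparison (open); the line marks equal levels. Otx1, Emx2 and Fezf2 lie above the line with Pax6 and Nr2e1, and Six3 and Otx2 lie below it with Nkx2-1 and Zic1.

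Lateral prominence neural epithelium lay between them for part of the genes. Against it, the library labelled central had 2 members higher (Fezf2 8.69-fold, Otx1 2.52-fold) and 2 lower (Lhx2 2.60-fold, Six3 2.18-fold), with 35.5% of 749 genes counted. The library labelled dorsal control had 2 members higher (Six3 4.07-fold, Otx2 3.73-fold) and 3 lower (Emx2 at least 11.8-fold, Otx1 9.53-fold, Lhx2 2.39-fold), with 53.9% of 1178 genes counted. For Six3 and Otx1 lateral prominence was thus the middle library, and for Lhx2 it was the highest. The comparisons of single libraries given here share libraries, so they are not independent of each other.

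E10.5 neural epithelium was then compared with the 4 libraries of the E10.5 nasal prominences and arches. With all 4, limma called 0 of 10184 genes (0%) and 0 of 6 tested members; 1043 genes had an unadjusted p under 0.05. The log2 differences of the 6 members were 2.39 to 3.61, at limma adjusted p of 0.391 to 0.446. Six3 ranged from 6.56 to 66.1 in the neural libraries and had face levels of 1, 1, 1.79 and 15.7, the highest in the library labelled medial nasal prominence. Fezf1 (6.85 to 10.6 against 1 to 3.75) and Fezf2 (3.34 to 27.1 against 1 in all 4) were the 2 of 6 without overlap. Overlap was judged on values as deposited, where 5.93% of tested genes had none. Fezf2 was tested only because it was above the floor in the 3 neural libraries, so its lack of overlap follows from the filter. Without the library labelled medial nasal prominence 583 of 9512 genes passed (6.13%; 2.62% as higher), and 4 of the 6 members were called higher. Otx2 rose by a log2 difference of 4.74 (SE 0.53, limma adjusted p 0.0027) and Six3 by 3.50 (SE 0.71, limma adjusted p 0.0273). Of the face libraries left, only the maxillary arch had them above the floor, at 1.78 and 1.79. The 3 neural libraries alone would have passed Otx2 and Six3 through the filter. Their calls thus also follow a selection on the neural side and are not separate support. Lhx2 and Fezf1 were at the floor in the other 3 face libraries and passed the filter through the 3 neural libraries alone, so their calls support nothing; their lowest neural levels of 21.0 and 6.85 are lower bounds of the fold with values as deposited. Otx1 (adjusted p 0.219) and Fezf2 (adjusted p 0.134) did not pass in that limma fit. Emx2 was at the floor in all 4 face libraries and in 1 of the neural libraries, and Hesx1 and Rax were at the floor in all 7.

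The surface epithelia, which are the olfactory pit at E10.5 and epidermal ectoderm at E9.5, held Six3, Otx1, Otx2, Lhx2 and Fezf1 at level 5 or more. Against the 7 libraries of cranial mesenchyme, arches and nasal prominences, Otx1 was 22.3-fold higher (log2 4.48, SE 0.48, limma adjusted p 0.0036) and Fezf1 7.64-fold higher (log2 2.93, SE 0.49, limma adjusted p 0.0354). That is 2 of 6 tested members, where 33 genes were higher and 11 lower of 11532 tested (0.382% in either direction, 0.286% as higher). Otx1 was 32.2 and 33.6 in the epithelia and 1 at the lowest, 1 at the median and 1.83 at the highest in the mesenchyme. Fezf1 was 10.9 and 13.4 against 1 at the lowest and the median and 3.75 at the highest, the last in the library labelled medial nasal prominence. Fezf1 met the filter only through the 2 epithelia and that library. Its call and its lack of overlap thus follow in part from the filter. Six3 also did not overlap, with 24.1 and 36.4 against 1, 1.15 and 15.7, and its log2 difference was 3.39 (SE 0.91, limma adjusted p 0.255). Those 3 of the 6 tested members were without overlap in values as deposited, beside 8.16% of tested genes.

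Calls, more than folds, changed when single libraries were left out. Without the library labelled medial nasal prominence Six3 passed as well (log2 3.81, limma adjusted p 0.0440), among 82 of 11193 genes (0.733%, 0.509% as higher), and Fezf1 could not be tested, since it was then at the floor in the 6 mesenchyme libraries. Otx1 was no longer called without epidermal ectoderm (23.7-fold, limma adjusted p 0.0808) or without the olfactory pit (20.9-fold, limma adjusted p 0.124), which leaves 1 epithelial library. Fezf1 lost its call without cranial mesenchyme, either E9.5 arch, the lateral nasal prominence or the E10.5 mandibular arch, at limma adjusted p between 0.0641 and 0.0878 and folds between 7.02 and 7.93. Otx2 (log2 3.08), Lhx2 (2.33) and Emx2 (1.84) were not called. For Otx2 the trended fit gave an SE of 4.99, and limma without the trend an SE of 1.17 (adjusted p 0.538). Of the olfactory placode factors, Eya2 (18.1-fold, limma adjusted p 0.0354) and Sp8 (8.51-fold, limma adjusted p 0.0262) rose, 2 of 12 tested, with a median log2 difference of 2.11 beside -0.04 over all tested genes. Sp8 met the filter only through the epithelia and the library labelled medial nasal prominence (level 1.03), so its call follows in part from the filter.

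**Figure D4:**
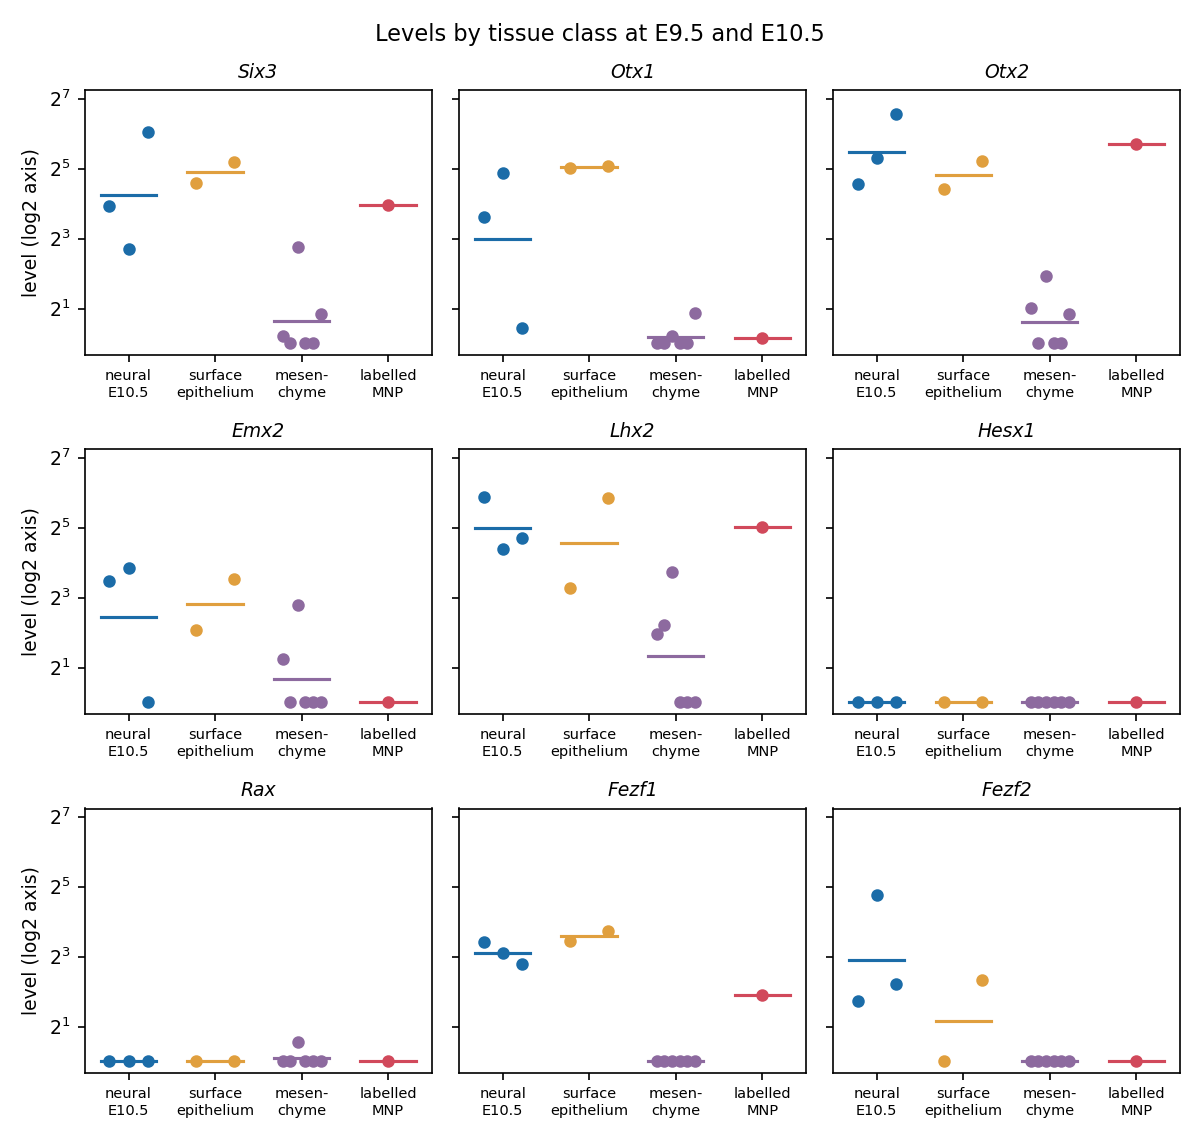
Level of each gene (1 panel each, log2 axis, multiple of the gene's floor) by tissue class: 3 E10.5 neural libraries, 2 surface epithelia, 6 mesenchyme libraries and the library labelled medial nasal prominence (MNP); points are libraries and bars the mean of log2 levels. For Otx1 both surface epithelium points (32.2 and 33.6) lie above every other point, and for Hesx1 every point is at 1. Relative to the median gene, which is not drawn, Otx1 was highest in the neural library labelled central (35.2).

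Markers of other cell types moved with this comparison. Epidermal ectoderm and the olfactory pit each had 9 of 12 surface epithelium markers at 5 or more, against 0 of 12 in the 7 other libraries. Neural progenitor markers at 5 or more numbered 5 of 8 in each epithelium, 6 of 8 in the library labelled medial nasal prominence, and 0 to 2 of 8 in the other 6. Neuron markers at 5 or more numbered 7 of 8 in the olfactory pit and 2 of 8 in epidermal ectoderm. Face mesenchyme markers at 5 or more numbered 6 of 12 in epidermal ectoderm (summed level 66.5) and 1 of 12 in the olfactory pit (20.6), against 7 to 10 of 12 in the 6 mesenchyme libraries (142.6 to 197) and 0 of 12 in the library labelled medial nasal prominence. Neural crest markers at 5 or more numbered 3 of 8 in epidermal ectoderm and 1 of 8 in the olfactory pit. Fabp7, a radial glia gene, was at the floor in both epithelia and between 22.6 and 45.1 in the E10.5 neural libraries. The part of these cell types in the members' levels, here and between the 2 epithelia, was not tested.

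Between surface epithelium and E10.5 neural epithelium 0 of 7 tested members were called by limma, with 3 genes higher and 3 lower of 10023 (0.0599%) and 2314 genes at an unadjusted p under 0.05. The count of all genes was 206 without the trend and 163 as deposited, and no member passed in either. Otx1, at 32.2 and 33.6 against 1.37, 12.3 and 29.0, and Fezf1, at 10.9 and 13.4 against 6.85, 8.63 and 10.6, were the 2 members without overlap, where 48.4% of genes had none. The log2 difference was 1.61 (SE 1.49) for Otx1, 0.04 (SE 0.85) for Fezf1, 0.20 (SE 1) for Six3, -0.88 (SE 0.86) for Lhx2, -1.10 (SE 0.61) for Otx2, -0.09 (SE 1.72) for Emx2 and -2.20 (SE 1.39) for Fezf2. With SEs of 0.61 to 1.72, these data do not show that the 2 tissues hold the same levels. There were 97 genes with a shared floor and a level of 5 or more in all 3 E10.5 neural libraries. Of these, 58 (59.8%) were also at 5 or more in the olfactory pit and 36 (37.1%) in epidermal ectoderm. The 4 members in that set, Six3, Otx2, Lhx2 and Fezf1, were at 5 or more in both.

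From epidermal ectoderm to the olfactory pit, which differ in stage as well as tissue, Lhx2 was 6.46-fold, Fezf2 at least 5.51-fold and Emx2 3.03-fold higher. That is 3 higher and 0 lower of 7 eligible members, where 36.9% of 2558 eligible genes were counted in either direction and 22.8% as higher. Otx1 (32.2 and 33.6), Fezf1 (10.9 and 13.4), Six3 (24.1 and 36.4) and Otx2 (21.5 and 37.3) were not counted. Of the olfactory placode factors 4 of 14 were higher and 0 lower, among them Nhlh1 (1.76 and 25.4) and Neurog1 (5.16 and 15), factors of newly formed neurons.

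Against single neural libraries the olfactory pit differed in 1 to 4 members. Otx1 was 2.08-fold higher than in lateral prominence, with 1 member higher and 0 lower and 68.4% of 2019 genes counted. Six3 was 4.01-fold higher and Fezf2 7.5-fold lower than in the library labelled central, with 70.4% of 2005 genes counted. Against the library labelled dorsal control, Otx1 (20.3-fold) and Emx2 (at least 9.58-fold) were higher and Otx2 (3.03-fold) and Six3 (2.19-fold) lower, with 61.0% of 2207 genes counted; as deposited Six3 was 1.82-fold lower and was not counted. With values as deposited 3 more differences were counted as higher in the pit, namely Six3 against lateral prominence (2.38-fold) and Lhx2 against the libraries labelled central (2.72-fold) and dorsal control (2.20-fold). The olfactory placode factors separated these tissues more, with 9 higher and 3 lower of 14 against lateral prominence, 11 and 1 against the library labelled central, and 10 and 1 against that labelled dorsal control. Eya2 (49.8) and Eya1 (23.4), which mark placodal ectoderm, had these levels in the pit, and Eya1 was at the floor in all 3 neural libraries.

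Outside neural tissue and surface epithelium, 2 libraries of the face had 3 members each at level 5 or more. In the E9.5 maxillary arch against the mandibular arch, Lhx2 was 2.75-fold higher, Emx2 6.74-fold at the least and Six3 6.65-fold at the least, that is 3 higher and 0 lower, with 22.7% of 2477 genes counted and 14.9% as higher. Emx2 and Six3 were at the floor in the mandibular arch, so they could only be counted as higher. Pax6 was 6.49 and 1 in these libraries, Hoxa2 18.3 and 1, surface epithelium markers at 5 or more were 0 of 12 in both, and neural progenitor markers 2 of 8 and 1 of 8. Whether cells of another tissue brought the members into the maxillary arch library was not tested. In the library labelled medial nasal prominence against the lateral nasal prominence, Otx2 was higher by 33.3-fold, Lhx2 by 20.6-fold and Six3 by 9.97-fold, each a lower bound, with 72.3% of 1999 genes counted and 53.4% as higher. All 3 were at the floor in the lateral nasal prominence, so they too could only be counted as higher. The library labelled medial nasal prominence also had 8 of 22 other forebrain and eye factors higher and 0 lower, beside the neural progenitor markers named above.

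The genes with the most similar pattern to each member were taken by Pearson r of log2 levels over the 16 libraries, leaving out other members, from 5052 genes that exceeded their floor in 3 or more libraries and reached level 5. For Six3 they were Six3os1 (0.97), Nrcam (0.87) and Fzd8 (0.84). For Otx2 they were Dpysl5 (0.96), Tox3 (0.95) and Cdh2 (0.95), and for Otx1 Dab1 (0.86), Pax6 (0.84) and Pkp2 (0.84). Emx2 was nearest to Pax6 (0.81), Dmrt3 (0.71) and Dmrta2 (0.66). Lhx2 was nearest to Six3os1 (0.87), Zdhhc2 (0.85) and Pak3 (0.84), Fezf1 to Gldc (0.89), Six3os1 (0.87) and Pak3 (0.86), and Fezf2 to Tcf7l2 (0.85), Gm22311 (0.83) and Lhx5 (0.83). Hesx1 was nearest to Dkk1 (0.98), Eras (0.98) and Grem1 (0.94), and the same 3 genes were nearest to Rax. These r rest largely on the 2 E8.5 anterior neural libraries, since Hesx1 was at the floor in 14 libraries and Rax in 13. The filter of 3 libraries also leaves out any gene above its floor in those 2 alone. Dkk1, a Wnt antagonist, was 6.12 and 2.88 in floor plate and non-floor plate, and Eras 27.4 and 28.5. Every r is over the same 16 libraries, which differ in their share of genes at the floor (50.6% in the olfactory pit and 81.5% in the E10.5 mandibular arch), and the part of that share in r was not tested.

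**Figure D5:**
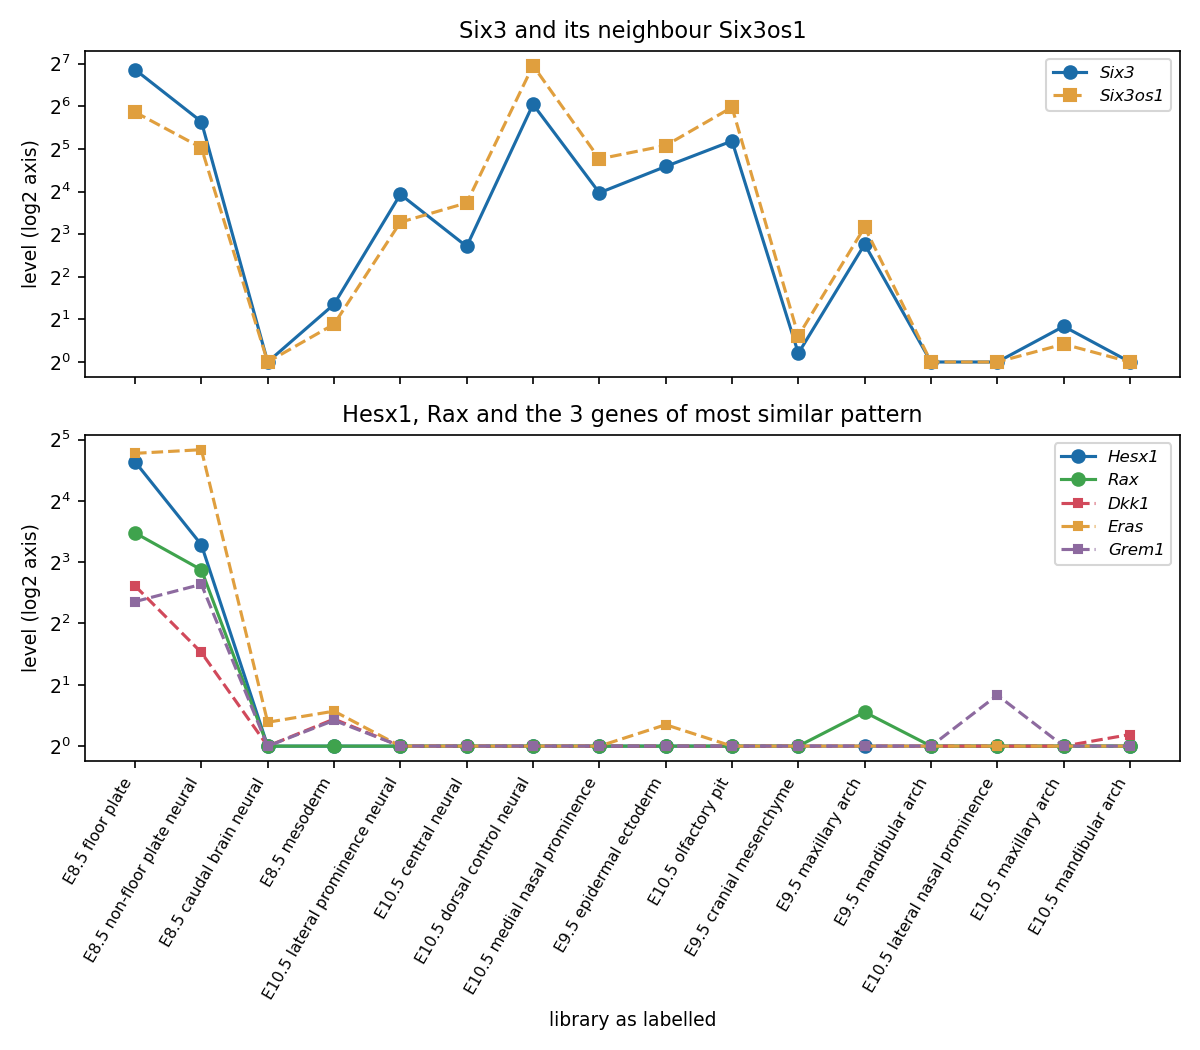
Levels over the 16 libraries as labelled (x axis) on log2 axes, as multiples of each gene's floor; lines only join the points of a gene. In the upper panel Six3os1 is highest in the library labelled dorsal control (124) and Six3 in E8.5 floor plate (116), and in the lower panel Hesx1, Rax, Dkk1, Eras and Grem1 are highest in the 2 E8.5 anterior neural libraries.

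Among the members themselves Hesx1 and Rax were most alike (r = 0.99, n = 16), followed by Six3 with Fezf1 (0.91), Six3 with Lhx2 (0.88), Six3 with Otx2 (0.85) and Lhx2 with Fezf1 (0.84). The r of Hesx1 with Rax rests largely on the 2 E8.5 anterior neural libraries, as the genes were at the floor in 14 and 13 libraries. Emx2 had the least in common with Hesx1 (0.00) and Rax (0.06). The paralogs had lower r than the 5 pairs named first, at 0.66 for Otx1 with Otx2 and 0.76 for Fezf1 with Fezf2.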

How the data were processed

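RNA of 16 regions of CD1 mouse embryos was sequenced, 1 library per region. Per the labels' protocols, a ZR RNA MicroPrep kit gave the RNA; the submitters' processing notes name Bowtie, TopHat, TopHat2, Cufflinks and mm9. For tool versions, the annotation and strand handling, nothing is given in the sources used here. Read depths were above 40000000, per the labels; the depth of each library is not stated, so no counting interval was computed. The deposited values are a ratio: each gene was divided by its own median over the 16 libraries and low values were raised to a floor, as the values themselves show. The unit before that division is not stated.

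From these ratios the level (ratio over the gene's lowest ratio; ties within 1e-06) was computed for 15876 genes, of which 8794 have a shared floor. The other 7082 gave each library's median shift, which was removed for folds ("relative to the median gene"). Single-library pairs (13) have no test; a gene was eligible at level 5 or more in the higher library. The 4 class comparisons were fitted on log2 ratios by limma 3.58.1 in R 4.3.3 with its trend option. A gene was tested if 3 or more of the fitted libraries exceeded its floor, and called at 2-fold or more and a Benjamini-Hochberg adjusted p under 0.05. Tables were handled with Python 3.11.15 and pandas 2.3.3. Values at the floor enter the fits as they stand. limma was tested on simulated data with 100 changed genes per size: of those changed by log2 4, 80 were called in E10.5 against E8.5 neural, 90 in neural against face, 95 in surface epithelium against mesenchyme and 70 in surface epithelium against neural. Of those changed by log2 2, 31, 49, 57 and 38 were called in the same order, with 7, 6, 4 and 4 unchanged genes called.

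The members and lists were chosen with earlier results of these data known. Named are the 9 members, the 3 genes most correlated with each, and called genes of the lists (other forebrain and eye factors, 22 of 24 measured; midbrain and hindbrain factors, 12 of 14; signals of the anterior neural plate, 21 of 23; olfactory placode factors, 14 of 14; noncoding neighbours, 2 of 5) and of the cell type markers; floor plate genes, and other genes named without a call, were chosen after their values were seen. Some list genes enter counts but are not reported here by name. Ebf1 stands on 2 rows, of which the first was used in the fits. Promoters come from RefSeq in GRCm38.p6 and no coordinates were converted from mm9. Alternatives were values as deposited, no filter, no trend, 1 fit over all libraries, leaving out each library, other level and fold minimums, and, added after seeing the data, leaving out the libraries labelled medial nasal prominence and E9.5 maxillary arch together.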

Additional observations from a re-analysis of the deposited data

Results flagged for a closer look

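Some values stood far from the rest of their group, by a gap to the nearest library as a share of the group's range; chance flags about 1 in 20 groups, and many of the groups tested sit at the floor, where a single value above it gives a share of 1. Among the 4 libraries of the E10.5 nasal prominences and arches, the library labelled medial nasal prominence was apart for Otx2 (level 52.3 against at most 1.78, share 0.854), Lhx2 (32.4 against 1, share 1) and Fezf1 (3.75 against 1, share 1). Among the 7 mesenchyme libraries it was apart for Otx2 (next level 3.80, share 0.663) and Fezf1 (share 1). In the same 7 libraries the E10.5 maxillary arch was apart for Otx1 (1.83 against at most 1.16, share 0.753), and the E9.5 maxillary arch for Rax (1.47 against 1, share 1). The last 2 levels are under 2 times the floor.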

How the results depend on the processing

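With 1 library per region and 2 to 7 libraries per class, calls across genes depended on single libraries; where leaving one out leaves a lone library in a class, it is assumed to vary like the other class. Counts over 13 single-library pairs were 57 member calls, 60 as deposited, 61 and 47 at a level minimum of 2 and 10, and 42 at 4-fold; 54 member values were at level 5 or more and 56 after the shift was removed. In E10.5 against E8.5 neural tissue, leaving out 1 library gave 0 to 497 genes in place of 679 (6 without lateral prominence, 49 without the library labelled central, 184 without floor plate, 0 without non-floor plate); 1 member, Rax, was called with no filter and with all 16 libraries in 1 fit, though all 3 E10.5 neural libraries are at its floor. There, with 1 library left out, the log2 differences of members that were not called ran from -0.68 (without the library labelled dorsal control) to 0.26 (without lateral prominence) for Otx2, from -0.60 (without non-floor plate; -0.53 without the library labelled central) to 1.5 (without floor plate) for Fezf2, from -2.20 (without the library labelled central) to 0.10 (without that labelled dorsal control) for Otx1 and from -0.10 (without floor plate) to 2.73 (without non-floor plate) for Emx2. In neural tissue against the E10.5 face, leaving out 1 library gave 0 to 583 genes and 0 to 4 members; the upper values are those without the library labelled medial nasal prominence and stayed 583 and 4 when the E9.5 maxillary arch, which is not in this fit, was named with it. In surface epithelium against mesenchyme the count was 44, 86 as deposited, and 5 to 82 genes and 0 to 2 members with 1 library left out (5 without the olfactory pit, 7 without epidermal ectoderm, 8 without the E9.5 maxillary arch, 82 without the library labelled medial nasal prominence). In surface epithelium against neural tissue the count was 6, 163 as deposited, 206 without the trend, 212 with all 16 libraries in 1 fit, and 0 to 20 with 1 library left out (20 without the olfactory pit and 0 without each of the others). There Emx2, not called, was at -0.09, 0.36 as deposited, and -1.37 (without the library labelled dorsal control) to 0.70 (without epidermal ectoderm; 0.43 without lateral prominence, 0.66 without the library labelled central). Lhx2 ran from -2.22 (without the olfactory pit) to 0.46 (without epidermal ectoderm), Six3 from -0.51 (without the library labelled central; -0.16 without the olfactory pit) to 1.05 (without that labelled dorsal control), and Fezf1 from -0.17 (without the olfactory pit, and without the library labelled dorsal control) to 0.26 (without epidermal ectoderm). The cause of these changes was not tested. No paired analysis was possible because each region has 1 library and the labels give no replicate numbers.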

Other observations

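Of 21 measured signals of the anterior neural plate, 11 were eligible in E8.5 floor plate against caudal brain, with 5 higher and 3 lower beside 27.4% of all eligible genes counted. In non-floor plate against caudal brain 9 were eligible, with 3 higher and 4 lower beside 33.0% of genes. Fzd5, a Wnt receptor, had levels of 18.2 and 16.5 in floor plate and non-floor plate and was at the floor in caudal brain. Wnt1 and Fgf18, which mark the midbrain-hindbrain boundary, were 16 and 16.1 in caudal brain, while Wnt1 was at the floor in both anterior libraries and Fgf18 was at 1.62 in floor plate. Aldh1a3, an enzyme that makes retinoic acid, was 18.4 in epidermal ectoderm and 31.2 in the olfactory pit and at the floor in the other 14 libraries. Aldh1a2, which catalyses the same step, was 12.9 in E8.5 non-floor plate and 2.28 in floor plate. In the E10.5 neural library labelled dorsal control, Fgf18 (13.8) and Fzd5 (6.75) were above level 5 beside Shh (12.4).

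Emx2os, a noncoding neighbour of Emx2, was above the floor in 4 libraries, in each of which Emx2 was above the floor too: 3.97 in the olfactory pit, 2.60 in the library labelled central, 1.79 in the E9.5 maxillary arch and 1.73 in epidermal ectoderm. In lateral prominence neural epithelium, where Emx2 was 11.1, Emx2os was at the floor.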
